A study of Mus musculus with 6 samples.

Results

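Genes of insulin, insulin-like growth factor (IGF) and mTOR signalling were examined in keratinocytes captured from the migrating edge of mouse skin wounds. The panel was listed by gene name and not by measured values, though with earlier results of these data known. It named 39 genes, of which 38 had a probe set with a single gene symbol on the array, out of 19938 genes measured in all. The signal of Rps6kb1 was not analysed here. The diabetic group held 3 arrays from mice fed a diet high in fat and fructose for 16 weeks from 8 weeks of age. The normal group held 3 arrays from mice kept on a control diet over the same period. Skin wounds of both groups were taken 3 days after wounding, and the cells at the tip of the epithelial tongue, located by E-cadherin staining, were pooled over the sections of a sample. The sources used here do not give strain, sex or blood glucose. The titles call the arrays of each group biological replicates but leave unsaid whether each array came from its own mouse. The p-values therefore reflect only how much these samples vary, and how far that is variation between mice is not known. Values are given as log2 signal of a probe set, and a difference is the diabetic mean minus the normal mean, with limma's standard error (SE).

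Insulin and the IGFs bind receptor tyrosine kinases that recruit IRS adaptors and PI3-kinase, whose lipid product activates PDK1 and AKT. AKT inhibits GSK3 and the TSC complex, which frees the GTPase RHEB to activate mTOR complex 1, a driver of protein synthesis and cell growth. In skin, IGF signalling is known to promote keratinocyte proliferation and migration, and phosphatases, SOCS proteins and GRB adaptors limit signalling at the receptor.

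The array signal was dim, which bears on every value below. A background limit was set for each array from 1194 genes of olfactory and vomeronasal receptors, taken as mostly silent in skin, as the 95th percentile of their signal. The limit lay between 1.98 and 2.11 on diabetic arrays and between 2.11 and 2.12 on normal arrays. The share of all genes above it was 29.4% to 36.6% on diabetic arrays and 27.4% to 28.7% on normal arrays. For a gene that does not exceed the limit, the signal gives only an upper bound. The labelled cell type was only partly visible, because 3 of 15 keratinocyte markers exceeded the limit on all 6 arrays and Cdh1, the E-cadherin gene, on none. Of the 15 markers, 9 had lower and 6 higher means in diabetic samples (median -0.09). Trp63 differed by -0.31 (limma unadjusted p 0.0425, adjusted p 0.887), and its groups overlapped. It was the 1 marker of 15 with an unadjusted p under 0.05, against 2.92% of all genes lower. Cdh1 and Perp were lower without overlap, at -0.16 and -0.25, which is 2 of 15 against 5.66% of all genes. Krt6b, Dsp and Krt16 were lower with overlap, at -0.48, -0.30 and -0.26. Krt14 and Krt5 were higher with overlap, at 0.23 and 0.19, and the remaining markers lay between -0.16 and 0.06. The part of keratinocyte content in the panel differences was not tested. In the panel, 11 of 38 genes (28.9%) were above the limit on all 6 arrays, against 17.4% of all genes, and 16 (42.1%) were above it on none, against 51.5%.

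Promoter sequences are shown for 4 genes to which the results below return. Igf1 and Igf1r, a ligand and its receptor, had differences of opposite sign, at signals under the limit on every array. Sesn2 was higher on every diabetic array, and Txnip is a classic glucose-responsive gene. None of the 4 had an adjusted p under 0.05 in limma. Each window runs from 250 bases before to 50 after the gene's start (RefSeq, build GRCm38.p6), written 5′ to 3′ on the gene's strand. Capitals mark motif matches on either strand.
Igf1 (chr10:87860861-87861160, plus strand): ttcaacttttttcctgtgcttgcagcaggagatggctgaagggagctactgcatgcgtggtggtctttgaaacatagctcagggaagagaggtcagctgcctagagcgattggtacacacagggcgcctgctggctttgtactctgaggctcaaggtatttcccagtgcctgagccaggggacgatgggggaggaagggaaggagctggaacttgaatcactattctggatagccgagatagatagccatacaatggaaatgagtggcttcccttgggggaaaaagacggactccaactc
Igf1r (chr7:67952007-67952306, plus strand): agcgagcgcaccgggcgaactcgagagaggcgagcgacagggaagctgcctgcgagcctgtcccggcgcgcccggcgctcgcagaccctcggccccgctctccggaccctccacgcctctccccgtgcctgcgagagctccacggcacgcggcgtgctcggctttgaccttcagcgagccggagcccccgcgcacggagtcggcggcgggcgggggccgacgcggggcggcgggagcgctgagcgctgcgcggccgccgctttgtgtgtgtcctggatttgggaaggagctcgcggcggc
Sesn2 (chr4:132510407-132510706, minus strand): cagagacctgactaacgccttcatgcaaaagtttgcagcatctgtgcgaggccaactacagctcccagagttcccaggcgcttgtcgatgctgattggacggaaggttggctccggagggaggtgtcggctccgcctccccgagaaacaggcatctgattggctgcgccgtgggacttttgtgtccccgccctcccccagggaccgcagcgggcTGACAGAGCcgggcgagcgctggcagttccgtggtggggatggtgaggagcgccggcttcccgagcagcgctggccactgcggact
Txnip (chr3:96557707-96558006, plus strand): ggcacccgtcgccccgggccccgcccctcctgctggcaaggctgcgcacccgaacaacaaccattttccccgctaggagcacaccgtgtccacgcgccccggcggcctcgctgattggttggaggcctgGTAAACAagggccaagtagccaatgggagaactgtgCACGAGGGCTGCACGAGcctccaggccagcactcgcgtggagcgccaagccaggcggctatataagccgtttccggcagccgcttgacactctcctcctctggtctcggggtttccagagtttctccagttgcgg

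The motifs searched were the FOXO core GTAAACA, the E-box CACGTG, the ATF4 element TGATGCAA, the antioxidant response element core TGACNNNGC and CACGAGNNNNNCACGAG, the half-site spelling of the carbohydrate response element known from Txnip, on which ChREBP and MondoA act. These letters are those of the Txnip site and not a general consensus, so the match in Txnip and its rarity follow from the choice of letters and are no finding. They occurred in 1 of 32851 promoter windows (0.00304%), which was that of Txnip, 85 to 69 bases before the start. The Txnip window also held the FOXO core, 121 to 115 bases before the start, found in 3.65% of all windows. The Sesn2 window held the antioxidant core 36 to 28 bases before the start, and so did 12.4% of all windows. The windows of Igf1 and Igf1r held none of the 5 motifs. The 37 panel genes with an entry, Rps6kb1 included, had 48 windows. Of these windows, 5 held the E-box, against 7.15% of all windows, and 6 the antioxidant core, against 12.4%. The FOXO core was in 2, against 3.65%, and the ATF4 element in 0, against 0.895%. The median GC content was 63.3% in panel windows and 52.7% in all windows. Insr and Eif4ebp1 had no entry.

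No gene of the panel passed the test. With limma and Benjamini-Hochberg adjustment over all genes, 0 of 38 had an adjusted p under 0.05, against 0% of all genes, and the smallest adjusted p in the panel was 0.780, for Igf1. At an unadjusted p under 0.05, Akt2, Igf1r and Sesn2 were higher in diabetic samples, 3 of 38 against 2.64% of all genes. Igf1 was lower, 1 of 38 against 2.92% of all genes. In either direction this makes 4 of 38, against 5.56% of all genes. The values of the groups did not overlap for 6 of 38 genes, against 10.7% of all genes. Of those 6, 4 were higher in diabetic samples (5.02% of all genes) and 2 lower (5.66% of all genes). The median difference was 0.05 over the panel and below 0.01 in size over all genes, with 22 panel genes above 0 and 16 below. The 95% confidence interval lay within 2-fold in either direction for all 38 genes and within 1.5-fold for 36, the exceptions being Igf1 and Akt2. For genes at background these intervals hold for the array signal and set no bound on RNA.

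**Figure D1:**
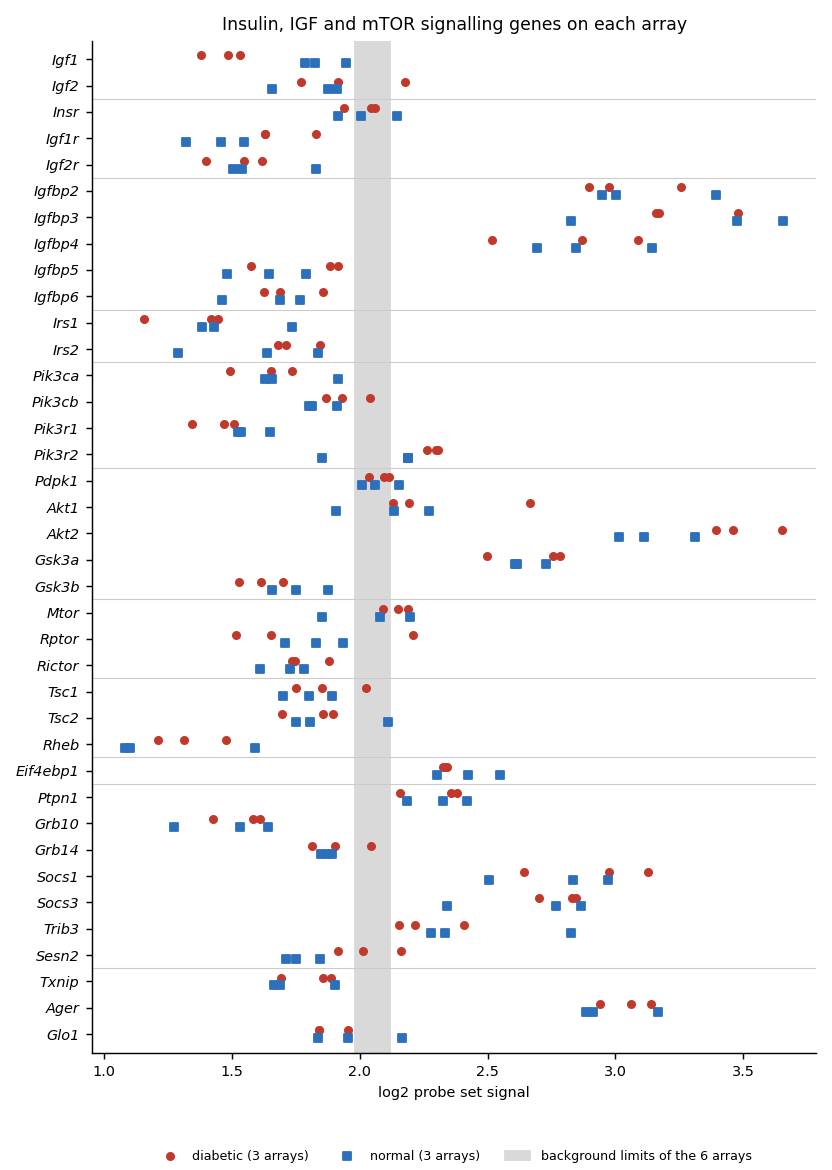
Log2 probe set signal (x axis) of 38 panel genes (rows, grouped by role) on 3 diabetic arrays (red circles) and 3 normal arrays (blue squares), with the range of the background limits of the 6 arrays in grey. Most rows lie left of or across the grey band, and the groups separate in 6 rows; levels of different genes are not comparable, since each row has its own probes.

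Igf1, a secreted growth factor made chiefly by stromal and immune cells in wounds, showed the smallest unadjusted p of the panel. Its signal was 1.38, 1.53 and 1.48 on the diabetic arrays, against 1.78, 1.95 and 1.83 on the normal arrays. All diabetic values lay below all normal values, and all 6 were under the background limit. Means were 1.46 ± 0.08 in the diabetic and 1.85 ± 0.08 in the normal group (SD, n = 3 each), which gave a difference of -0.39 (SE 0.11, 95% interval -0.62 to -0.15, limma unadjusted p 0.00350, adjusted p 0.780). It ranked 82 among 19938 genes by unadjusted p. In such pooled samples, fewer cells of a type and less RNA per cell cannot be told apart. Of 11 macrophage and neutrophil markers, 4 were higher and 7 lower in diabetic samples, and their mean signal was 1.57 to 1.62 on diabetic and 1.55 to 1.77 on normal arrays. The defining markers Csf1r, Adgre1, Ptprc and Cd68 were under the limit on every array. The neutrophil markers S100a9 and Csf3r were above it on 2 diabetic and 2 normal arrays and on 1 diabetic and 2 normal arrays, and both had lower means in diabetic samples, with differences of -0.34 (SE 0.25) and -0.17 (SE 0.12). The groups did not overlap for Csf3r, while S100a9 overlapped and had its highest signal, 3.08, on normal replicate 2. S100a8, Ly6g, Cxcr2, Itgam and Lyz2 were under the limit on every array. Their differences were -0.002, -0.002, -0.03, 0.20 and 0.10 in that order. Fibroblast markers averaged 2.17 to 2.28 on diabetic and 2.18 to 2.21 on normal arrays, with 5 of 9 higher. Col1a1, Col1a2 and Col3a1 were above the limit on all 6 arrays, and Dcn, Lum and Postn on none. Pdgfra was above it on 3 diabetic and 0 normal arrays, and Fbln1 and Thy1 on some arrays of each group. The part of these cells in the Igf1 signal was not tested. The other ligand, Igf2, differed by 0.14 (SE 0.13) and overlapped between groups.

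Igf1r, the receptor for both IGFs, was higher on all diabetic arrays. Its signal was 1.83, 1.63 and 1.63 on the diabetic arrays, against 1.32, 1.46 and 1.55 on the normal arrays. The groups did not overlap, but diabetic replicates 2 and 3 stood close to normal replicate 3, and no value reached the limit. Means were 1.70 ± 0.12 in the diabetic and 1.44 ± 0.11 in the normal group, which gave a difference of 0.25 (SE 0.11, unadjusted p 0.0416, adjusted p 0.887 in limma).

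The insulin receptor gene Insr did not differ beyond the spread with either of its probe sets, both of which are numbered among probe sets of chromosome 8, where the gene lies. The brighter one (10576696) read 2.04, 2.06 and 1.94 on the diabetic arrays, against 2.15, 2.00 and 1.92 on the normal arrays. The dimmer one (10576692) read 1.68, 1.70 and 1.93 on the diabetic arrays, against 1.49, 1.85 and 1.96 on the normal arrays. The groups overlapped in both, and the 2 probe sets ordered the arrays differently. In a fit over all 35556 probe sets, the differences were -0.01 (SE 0.11, 95% interval -0.26 to 0.25) for the brighter and less than 0.01 in size (SE 0.15, 95% interval -0.35 to 0.35) for the dimmer. The brighter probe set exceeded the limit on 2 diabetic arrays and 1 normal array, and the dimmer on none. Igf2r, which clears IGF2 and sorts lysosomal enzymes, differed by -0.10 (SE 0.12).

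**Figure D2:**
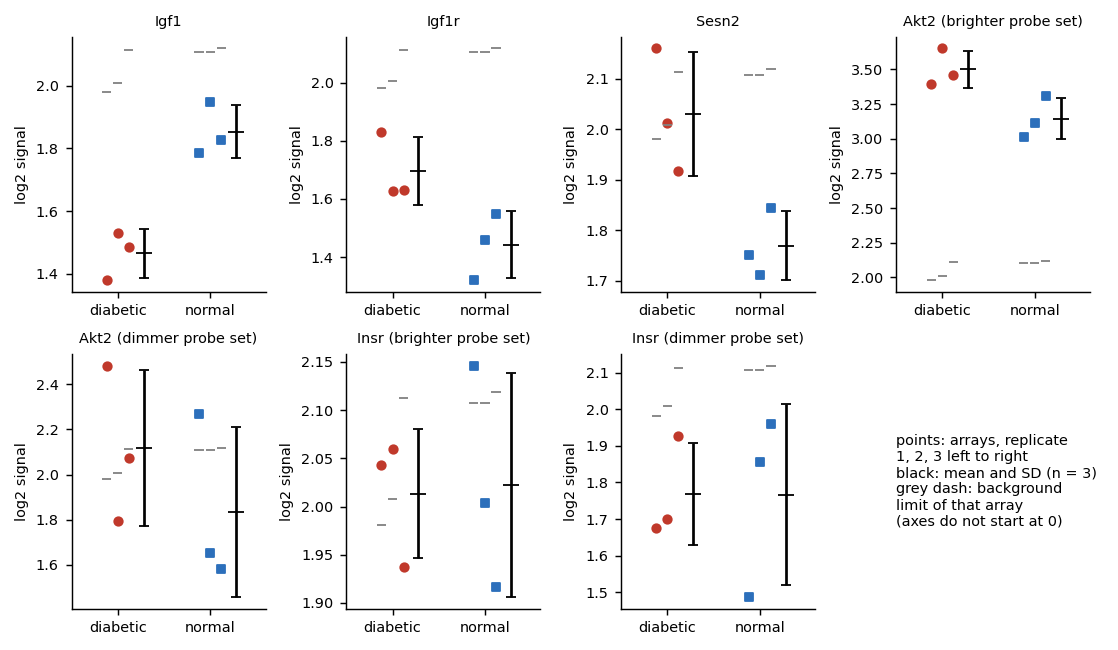
Log2 signal (y axes, not starting at 0) of Igf1, Igf1r, Sesn2 and both probe sets of Akt2 and Insr, with 3 diabetic arrays (red circles) left of 3 normal arrays (blue squares), means ± SD in black and each array's background limit as a grey dash. Igf1 is lower and Igf1r, Sesn2 and the brighter Akt2 probe set are higher on every diabetic array, while the dimmer Akt2 probe set and both Insr probe sets overlap.

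IGF binding proteins, which carry IGFs and tune their access to the receptor, were above the limit on all 6 arrays for 3 of 5 genes and on none for the other 2, and the groups overlapped in all 5. Igfbp2 read 2.90, 2.97 and 3.26 on the diabetic arrays, against 2.95, 3.40 and 3.00 on the normal arrays. Igfbp3, the main IGF carrier of blood, read 3.17, 3.16 and 3.48 on the diabetic arrays, against 2.83, 3.66 and 3.48 on the normal arrays. Igfbp4 read 3.09, 2.52 and 2.87 on the diabetic arrays, against 2.69, 3.14 and 2.85 on the normal arrays. Each of the 3 varied more between arrays of a group than between the groups, with differences of -0.07 (SE 0.17), -0.05 (SE 0.21) and -0.07 (SE 0.18) in that order. Igfbp5 and Igfbp6 were under the limit on all arrays and differed by 0.15 and 0.08.

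The receptor adaptors Irs1 and Irs2, which link the receptors to PI3-kinase, had no array above the limit. They differed by -0.18 (SE 0.12) and 0.16 (SE 0.14), and the other Irs1 probe set gave -0.18 in the fit over all probe sets. Among PI3-kinase subunits, the groups did not overlap for 1 regulatory gene higher and 1 lower. Both belong to the 6 of 38 panel genes without overlap, against 10.7% of all genes. Pik3r2, the p85-beta gene, read 2.31, 2.30 and 2.26 on the diabetic arrays, against 1.85, 2.19 and 2.19 on the normal arrays, a difference of 0.21 (SE 0.13, unadjusted p 0.127 in limma). Normal replicate 1 lay apart from the other normal arrays, and without it the Pik3r2 difference was 0.10. Pik3r1, the p85-alpha gene, read 1.51, 1.47 and 1.34 on the diabetic arrays, against 1.65, 1.53 and 1.52 on the normal arrays, all under the limit, a difference of -0.13 (SE 0.10, unadjusted p 0.229). The gap between the groups was narrow, with the highest diabetic value at 1.51 and the lowest normal value at 1.52, and the Pik3r1 difference was -0.08 without diabetic replicate 3. The catalytic subunit genes Pik3ca and Pik3cb differed by -0.11 and 0.10 and overlapped.

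Akt2, the AKT kinase most tied to insulin-stimulated glucose uptake, had the largest positive difference of the panel. Its brightest probe set (10374364) read 3.39, 3.65 and 3.46 on the diabetic arrays, against 3.02, 3.11 and 3.31 on the normal arrays. All 6 values were well over the background limit, and the diabetic arrays were all higher. Means were 3.50 ± 0.13 in the diabetic and 3.15 ± 0.15 in the normal group, which gave a difference of 0.36 (SE 0.15, unadjusted p 0.0362, adjusted p 0.877 in limma). The other Akt2 probe set (10551393) read 2.48, 1.79 and 2.07 on the diabetic arrays, against 2.27, 1.65 and 1.58 on the normal arrays. There the groups overlapped. In the fit over all probe sets the differences were 0.36 (SE 0.16, unadjusted p 0.0606) for the brightest and 0.28 (SE 0.24, unadjusted p 0.276) for the other probe set. Akt2 lies on chromosome 7, as do the genes of the probe sets numbered next to the dimmer probe set, whereas 19 of the 20 nearest-numbered probe sets to the brighter one belong to genes on chromosome 11. Which locus the brighter probe set reads was not tested. Skeletal muscle markers, from a tissue rich in Akt2, were higher in diabetic samples for 9 of 10 genes, against 48.7% of all genes. Of the 10, 1 was higher at an unadjusted p under 0.05 in limma (2.64% of all genes) and 3 without overlap (5.02%). They averaged 2.28 to 2.51 on diabetic and 2.23 to 2.29 on normal arrays, so the averages overlapped. The part of muscle in the Akt2 signal was not tested.

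The remaining kinases of this step showed smaller differences. Akt1, the widely expressed AKT of growth control, read 2.13, 2.19 and 2.67 on the diabetic arrays, against 2.27, 1.91 and 2.13 on the normal arrays, a difference of 0.23 (SE 0.16). Diabetic replicate 3 was the highest, and the other diabetic values lay within the normal range. Gsk3a, a kinase that AKT inhibits, was above the limit throughout, at 2.76, 2.78 and 2.50 on the diabetic arrays, against 2.61, 2.62 and 2.73 on the normal arrays, a difference of 0.03 (SE 0.14). Its relative Gsk3b was under the limit on all arrays and differed by -0.15 (SE 0.11). Pdpk1, the PDK1 gene, differed by 0.01 (SE 0.11).

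**Figure D3:**
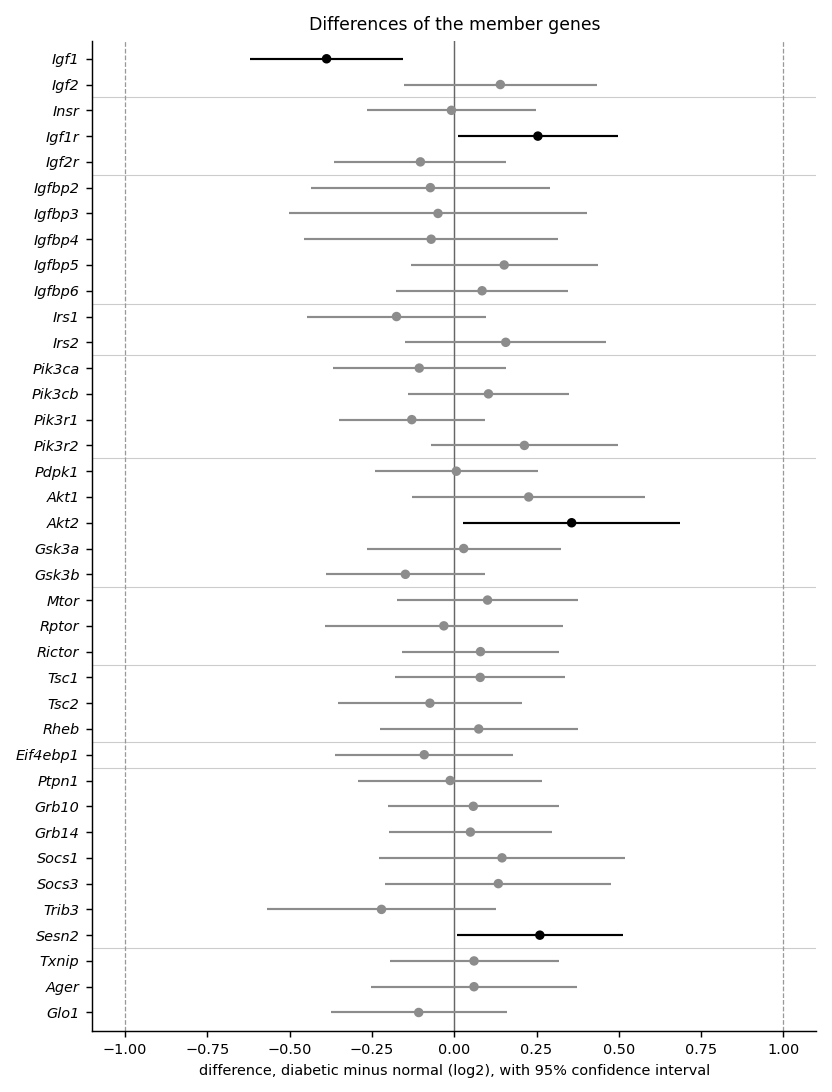
Difference between groups (x axis, log2, diabetic minus normal) of 38 panel genes with 95% confidence intervals, grouped by role, in black where the unadjusted p was under 0.05 and in grey otherwise. Dashed lines mark 2-fold, and every interval lies between them, with those of Igf1, Igf1r, Akt2 and Sesn2 clear of 0.

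Core mTOR genes differed little in signal, much of it at background. Mtor, the kinase itself, differed by 0.10 (SE 0.13), Rptor, the scaffold of complex 1, by -0.03 (SE 0.17) and Rictor, its counterpart in complex 2, by 0.08 (SE 0.11). Rptor ranged widely among the diabetic arrays, at 1.52, 2.21 and 1.65, against 1.71, 1.94 and 1.83 on the normal arrays. The brake genes Tsc1 and Tsc2 differed by 0.08 and -0.07, and Rheb, which they restrain, by 0.07. Mtor exceeded the limit on 3 arrays, Rptor and Tsc2 on 1 each, and Rictor, Tsc1 and Rheb on none. Where the signal stayed under the limit, a small difference does not show unchanged RNA. Eif4ebp1, a translation repressor that mTOR complex 1 switches off, read 2.34, 2.33 and 2.34 on the diabetic arrays, against 2.42, 2.55 and 2.30 on the normal arrays, a difference of -0.09 (SE 0.12). The diabetic arrays were close together and lay inside the spread of the normal arrays.

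Among negative regulators, Sesn2 was the one with an unadjusted p under 0.05. Sestrin 2 is a stress-induced leucine sensor that holds back mTOR complex 1. Sesn2 read 2.16, 2.01 and 1.92 on the diabetic arrays, against 1.75, 1.71 and 1.84 on the normal arrays. Every diabetic array was higher, and diabetic replicates 1 and 2 alone exceeded their limits, which were also the lowest of the 6. Means were 2.03 ± 0.12 in the diabetic and 1.77 ± 0.07 in the normal group, which gave a difference of 0.26 (SE 0.12, unadjusted p 0.0447, adjusted p 0.887 in limma). Trib3, a stress-induced pseudokinase that binds AKT, had the opposite sign, at 2.15, 2.22 and 2.41 on the diabetic arrays, against 2.28, 2.83 and 2.33 on the normal arrays. Its difference was -0.22 (SE 0.16), and normal replicate 2 stood above the rest.

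Inhibitors that act at the receptor overlapped between groups. Ptpn1, the insulin receptor phosphatase PTP1B, read 2.38, 2.36 and 2.16 on the diabetic arrays, against 2.19, 2.42 and 2.33 on the normal arrays, a difference of -0.01 (SE 0.13). Socs1, a cytokine-induced inhibitor that also targets IRS proteins, read 2.64, 3.13 and 2.98 on the diabetic arrays, against 2.97, 2.83 and 2.51 on the normal arrays, a difference of 0.15 (SE 0.17). Its relative Socs3 read 2.83, 2.85 and 2.70 on the diabetic arrays, against 2.77, 2.87 and 2.34 on the normal arrays, a difference of 0.13 (SE 0.16), and the other Socs3 probe set gave 0.04 (SE 0.19) in the fit over all probe sets. In all 3 genes the ranges of the groups lay over each other. The receptor-binding adaptor genes Grb10 and Grb14 differed by 0.06 and 0.05.

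Genes of glucose stress gave no difference beyond the spread. Txnip, whose product lowers glucose uptake and binds thioredoxin, read 1.89, 1.69 and 1.86 on the diabetic arrays, against 1.69, 1.66 and 1.90 on the normal arrays. The groups overlapped under the limit, with a difference of 0.06 (SE 0.12, 95% interval -0.20 to 0.32). Ager, the receptor for advanced glycation end products, read 3.14, 2.94 and 3.06 on the diabetic arrays, against 2.89, 3.17 and 2.91 on the normal arrays, a difference of 0.06 (SE 0.14). Glo1, which detoxifies methylglyoxal, differed by -0.11 (SE 0.12) with the brighter and -0.12 (SE 0.11) with the dimmer probe set, both in the fit over all probe sets. Of these, Glo1 on chromosome 17 was another gene whose brighter probe set is numbered among probe sets of a different chromosome, here 2.

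**Figure D4:**
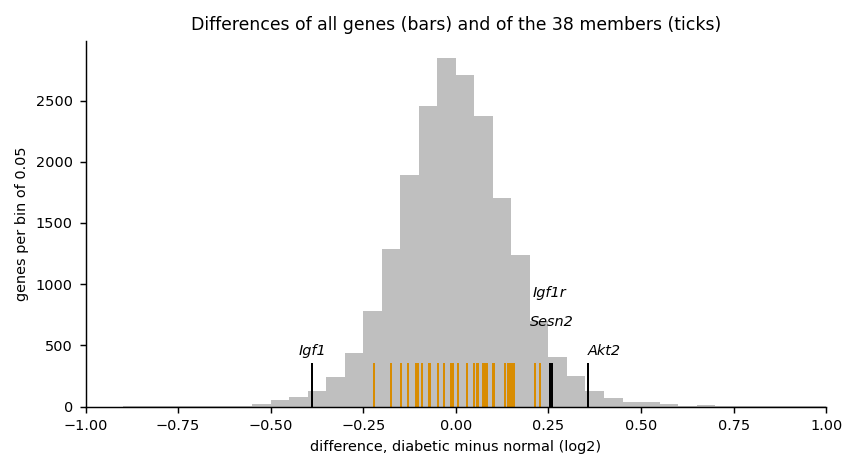
Histogram of the difference (x axis, log2, diabetic minus normal) of all 19938 genes in bins of 0.05 (y axis, number of genes), with panel genes as ticks, black where the unadjusted p was under 0.05. Panel genes spread over the body of the distribution, with Igf1 near its lower and Akt2 near its upper edge; 15 genes beyond 1 in size are off the axis.

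Wider parts of the pathway were read from further lists of genes outside the panel. Counts by an unadjusted p under 0.05 are read against 2.64% of all genes higher and 2.92% lower, and in none of these lists did they reach beyond 1 gene. Of 19 other insulin and IGF receptor genes, 1 was higher (2.64% of all genes) and 0 were lower, near the background share, and the median difference was -0.03. The one was Cblb, a ubiquitin ligase that damps receptor signalling, at 0.26 (SE 0.12), with Shc1, an adaptor of the receptors, at -0.21 (SE 0.11) and Igfals, the acid-labile subunit gene, at 0.25 (SE 0.17). Of 19 other PI3-kinase and AKT genes, 0 were higher and 1 lower (2.92% of all genes), likewise near the background share, with a median of less than 0.01 in size. Pik3cg, the leukocyte-enriched p110-gamma gene, was at -0.31 (SE 0.12) and the glucose transporter gene Slc2a4 at -0.34 (SE 0.17). Foxo3, a transcription factor that AKT inhibits, was at 0.23 (SE 0.12). Cblb, Pik3cg and Slc2a4 exceeded the limit on 1 array each, Igfals on 3 and Shc1 on none. Foxo3 was above the limit on all 6 arrays and did not overlap (unadjusted p 0.0843, adjusted p 0.893 in limma). It read 2.40, 2.44 and 2.54 on the diabetic arrays, against 2.16, 2.25 and 2.29 on the normal arrays. In this list the groups did not overlap for 1 gene higher and 2 lower, against 5.02% and 5.66% of all genes.

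Of 38 other mTOR genes, 1 was higher, the background share of 2.64%, and 0 were lower, with a median of 0.06. Mapkap1, the SIN1 subunit gene of mTOR complex 2, read 1.70, 1.64 and 1.67 on the diabetic arrays, against 1.28, 1.53 and 1.30 on the normal arrays, a difference of 0.30 (SE 0.11, unadjusted p 0.0159, adjusted p 0.819 in limma). Its groups were apart at signals under the limit. Sesn1, a relative of Sesn2, was at 0.35 (SE 0.17) with overlap, since normal replicate 2 at 2.10 was the highest of all 6 arrays. The lysosomal GTPase gene Rragb was at 0.22 (SE 0.13). Of 16 other glucose stress genes, 0 passed in either direction at an unadjusted p under 0.05, with a median of 0.01. Gfpt1, the entry enzyme of hexosamine synthesis, was at -0.16, Nlrp3 at 0.16 and Mlxipl, the ChREBP gene, at -0.17. In these 4 lists of 92 measured genes, 0 had an adjusted p under 0.05.

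The 4 genes singled out by unadjusted p differed in how far they leaned on single arrays and settings. For Igf1, the unadjusted p stayed under 0.05 in 13 of 13 alternatives, with differences between -0.42 and -0.34 and a limma adjusted p no lower than 0.659. For Akt2 this held in 9 of 15, for Sesn2 in 9 of 14 and for Igf1r in 7 of 13, with differences of 0.28 to 0.44, 0.20 to 0.32 and 0.19 to 0.31. These counts are not on equal terms. Both dim-gene filters removed Igf1 and Igf1r, and that on the background limit removed Sesn2. These 3 genes have 1 probe set each, so probe set handling could not change their values. All 4 genes were picked by unadjusted p on these same arrays. The count of panel genes higher at an unadjusted p under 0.05 was 1 without diabetic replicate 1, 1 without diabetic replicate 2, 0 without normal replicate 1 and 0 without normal replicate 2. With the replicate number as a block it was 1.

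**Figure D5:**
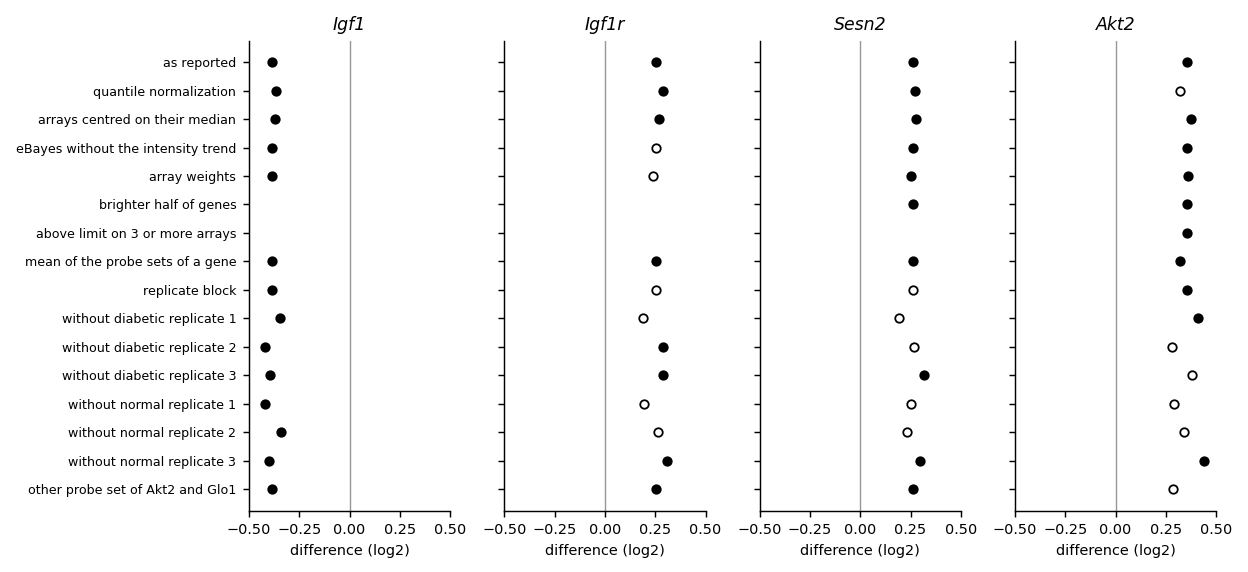
Difference between groups (x axes, log2, diabetic minus normal) of Igf1, Igf1r, Sesn2 and Akt2 under each processing setting (rows), filled where the unadjusted p was under 0.05 and open otherwise; a row without a point is a filter that removed the gene. The sign of each gene is the same in every row with a point, and Igf1 alone is filled in all of its rows. Since the groups of these genes do not overlap, leaving out an array could not change the sign.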

How the data were processed

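The authors deposited log2 probe set signals for 35556 probe sets on 6 whole-transcript arrays, per the labels from laser-captured keratinocytes with RNA of fixed tissue. The log base was inferred from the range of the values and was not otherwise checked. The submitters' processing notes name Partek, and the sources used here do not give how background, normalization and summarization were handled. No further scaling was applied, and the number of columns of other series was 0. The number of arrays limits the precision.

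Of the probe sets, 21789 carried 1 gene symbol in the platform annotation, 1621 several and 12146 were unlisted. Symbols were updated by gene ID for 21698 (GRCm38.p6). The brightest probe set by mean stood for a gene. Groups and replicate numbers came from the titles. The comparison used limma 3.58.1 under R 4.3.3 (eBayes with an intensity trend), Benjamini-Hochberg adjusted over 19938 genes and tested on simulated data. Named genes were all panel genes, with array values for both Insr probe sets and for genes with an unadjusted p under 0.05, no overlap or signal above the limit on all arrays, and up to 3 genes of each further list by unadjusted p. Array values of Akt1, Rptor, Txnip, Foxo3 and Mapkap1 were added after they were seen. So were the values of the keratinocyte markers and of S100a9, Csf3r, S100a8, Ly6g, Cxcr2, Itgam and Lyz2. The panel, lists and tests were chosen with earlier results of these data known. Alternatives changed scaling, variance model, array weights, dim-gene filters, probe set handling, a replicate block and each array left out. Deviations of same-numbered samples correlated at -0.02, 0.01 and 0.01, so the numbers were not taken as pairs.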

Additional observations from a re-analysis of the deposited data

How the results depend on the processing

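No panel gene had an adjusted p under 0.05 in any of the 15 alternatives, the lowest being 0.659 for Igf1. Over all genes the count with an adjusted p under 0.05 was 0 in the alternatives on all 6 arrays and 0 to 2 with each array left out, being 2 without diabetic replicate 2 and 1 without diabetic replicate 3. The 3 panel genes higher at an unadjusted p under 0.05 became 1 among genes above the background limit on at least 3 arrays, where 16 panel genes were left, and 0 to 3 with each array left out. With a replicate block they became 1, and the cause was not tested. The block changed no adjusted call. The 1 gene lower, Igf1, was removed by the filter to the brighter 50% of genes and by that on the background limit, which gave 0 for this count, because its signal is dim. The median difference over the panel ranged between 0.01 and 0.07. Of 38 panel genes, 24 kept their sign in every alternative that could be fitted and 14 changed it at least once. None of these 14 had an unadjusted p under 0.05 as reported. The panel genes under that p had groups without overlap, so leaving out an array could not change their sign. The choice of the other probe set for Akt2 and Glo1 was made after seeing the data, and with it Akt2 differed by 0.28 (unadjusted p 0.187) in the gene fit. Signal near background limits what can be read for the 16 genes above the limit on no array.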

Other observations

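Probe set numbers on this array largely follow the chromosomes. For 20982 of 21698 single-gene probe sets (96.7%), the commonest chromosome among the 20 nearest-numbered probe sets of other genes was that of the gene itself. Of the 43 probe sets of panel genes, 41 fulfilled this, and the 2 that did not were the brighter probe sets of Akt2 and Glo1. Over all genes the brightest probe set failed it in 288, of which 222 had several probe sets. The sequence each probe set matches was not analysed here.

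Exactly equal signals on at least 2 of the 6 arrays occurred in 777 of 19938 genes (3.90%) and in 1 panel gene, Glo1, which read 1.84 on diabetic replicates 1 and 2 and 1.96 on diabetic replicate 3 and normal replicate 2.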
